A study of Gallus gallus with 5 samples.

Results

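The 3 arrays of linker histone mutants in the series, 1 labelled as a deletion of histone H1L and 2 labelled as deletions of histone H1R, were taken as 1 group and compared with the 2 arrays of wild-type cells (WT), so that 3 of the 5 arrays were members and the other 2 their controls. All cells were chicken DT40, a B cell line from a bursal lymphoma that is used for gene targeting because it integrates transfected DNA by homologous recombination at a high rate. Total RNA of growing cultures was hybridised to Affymetrix chicken arrays. The mutants are written as L-/- and R-/- in the sample descriptions, which means loss of both alleles of 1 variant in each line, and no other genotype or agent is given for any group. Whether 2 arrays of a genotype stand for 2 cultures, 2 clones or 1 RNA is not stated in the sources used here, and the p-values below reflect the spread among arrays, part of which may be technical. H1L and H1R below stand for the arrays so labelled.

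Linker histones bind the DNA that enters and leaves the nucleosome and help to fold nucleosome arrays into more compact chromatin. Vertebrates carry several genes for closely related variants, and cells that lose 1 variant can often make up for it with the others. In DT40 the variants had been deleted singly, and the series asked which transcripts respond to the loss of a particular variant. Grouping the mutants asks the complementary question, which transcripts differ from WT in the same direction whichever of these variants was deleted.

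Median probe set signals were between 19.3 and 22.4 on the 5 arrays, and correlations of log2 signals between arrays were between 0.921 and 0.959. Actin gave 3'/5' signal ratios, which rise as RNA degrades, from 2.01 to 3.87, and the highest were those of the first day's arrays, WT replicate 1 (2.81) and H1R replicate 1 (3.87). A bound on background was taken for each array from 23 control probe sets with no target in chicken RNA and was between 18 and 33.6. All 9 B cell markers on the array, among them CD79B, PAX5 and EBF1, read above this bound on all 5 arrays. Of the T cell markers, CD3D and CD247 also read above it on all 5 arrays, and CD4, ZAP70 and LCK on none.

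The probe sets of the linker histones gave no check of the labels. HIST1H111L read 1320 and 2034.8 in WT, 2295.3 on H1L, and 981.8 and 2372 for H1R, a log2 fold change of the mutants over WT of 0.09 ± 0.37 (SE, limma adjusted p = 0.99). HIST1H111R read 36.1 and 39.4 on WT, 42.2 on H1L, and 28.9 and 7 on H1R (log2 fold change -0.64 ± 0.51, limma adjusted p = 0.83). HIST1H111L was thus brighter on H1L than on either WT array, and HIST1H111R was dimmer on both H1R arrays than elsewhere, though replicate 1 at 28.9 lay close to WT. HIST1H111R was dim throughout, with 36.1 on WT replicate 1 against a background bound of 29.2 and 7 on H1R replicate 2 against 33.6. The IDs of the HIST1H111L and HIST1H111R probe sets carry the same cluster number and differ only in their endings, S1_at and A1_at. Which strand each of them reads was not examined, so the dim signal of HIST1H111R need not give the level of its mRNA. The labels do not tie H1L and H1R to these symbols, and a probe set outside the deletion, or one that reads a near-identical variant, would not show it. H1FOO, the oocyte variant, was too dim to be tested, with signals between 3.5 and 32.9.

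A change was called common to the mutants when 2 conditions held: limma called the mean of the 3 mutant arrays different from that of the 2 WT arrays (adjusted p under 0.05, Benjamini-Hochberg over all tested probe sets), and each of the 6 differences between a mutant and a WT array had the same sign and a size of at least 1 log2 unit. Of 23053 probe sets tested, 247 (1.07%) met both conditions, 116 higher (0.503%) and 131 lower (0.568%) in the mutants. They covered 75 genes with a symbol that were higher and 84 that were lower, out of 9962 tested genes. The median log2 fold change was 2.72 for the higher and -2.72 for the lower probe sets. In 65 of the 116 higher probe sets (56%) both WT arrays lay at or below the background bound, and in 50 of the 131 lower ones (38.2%) all 3 mutant arrays did. In many of the common changes 1 group of lines was therefore not read above background, as the plot of group means shows. The other group was not always far above it, as for LTBP1, with 23.8 to 43.8 on the mutants (at least 1.33-fold higher). In bulk RNA, fewer cells with a transcript and less transcript per cell cannot be told apart.

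**Figure D1:**
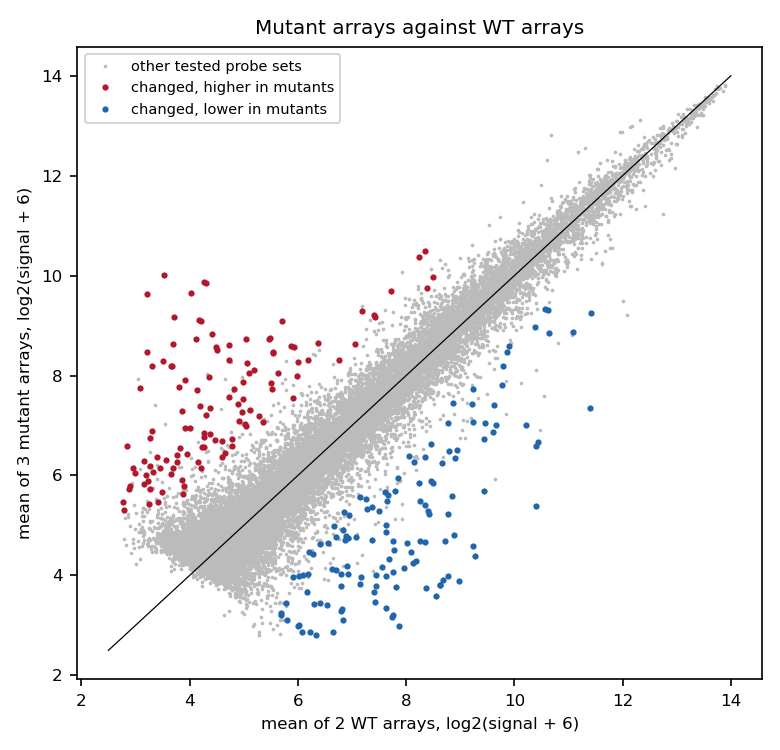
Each point is 1 of 23053 tested probe sets, with the mean log2(signal + 6) of the 2 WT arrays on the x axis and that of the 3 mutant arrays on the y axis, and the line marks equal values. The 116 probe sets with a common rise (red) and the 131 with a common fall (blue) lie apart from the band of the other probe sets (grey), and many of them have 1 mean at the dim end of the scale.

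Taken alone, the limma test called 268 probe sets (1.16%), 129 higher (0.56%) and 139 lower (0.603%), and 2214 (9.6%) had an unadjusted p under 0.05. The count of 268 became 689 when the day was added as a block (326 higher, 363 lower), and all 268 were among the 689. The count was 94 without WT replicate 1, 158 without WT replicate 2, 142 without H1R replicate 2 and 404 without H1R replicate 1. The count of 247 common changes became 94, 158 and 142 without the first 3 of these arrays. Separation by at least 1 log2 unit in all 6 pairs, with no test, held for 385 probe sets (1.67%), 187 higher (0.811%) and 198 lower (0.859%), of which 138 were not called by limma. At 2 log2 units the count was 107 (0.464%), with 47 higher (0.204%) and 60 lower (0.26%). For a single probe set the exact permutation test over these arrays has 10 splits and cannot give a p below 0.1, so the calls rest on limma's shared estimate of the spread. Just inside the limit of 1 log2 unit the smallest difference was 1.00 for a rise and 1.02 for a fall, and just outside it, among probe sets limma called, 0.97 and 0.96.

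The common rises with the largest separation were led by CPNE8 and PPDPF. CPNE8, a copine that binds phospholipids in the presence of calcium, read 6.8 and 0.8 on WT, 728 on H1L, and 858.7 and 769.6 on H1R. The mutants were at least 31.3-fold higher (limma adjusted p = 1.4e-05). The 3 mutant values lay close together and far above both WT values. Its 3 other probe sets were called as higher too. PPDPF, a factor named for its part in growth of the exocrine pancreas in zebrafish, read 3.4 and 8.1 on WT against 2021.2 on H1L and 538.9 and 987.8 on H1R, at least 41-fold higher (limma adjusted p = 6.1e-05). Here H1L was the highest of the mutants, and both WT signals were below the background bound.

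SLA, the Src-like adaptor, which dampens antigen receptor signalling in mouse lymphocytes, read 9.2 and 11.5 on WT, 564.5 on H1L, and 1451.5 and 630.7 on H1R. It was at least 32.1-fold higher in the mutants (limma adjusted p = 5.8e-05), and its 2 other probe sets were called in the same direction. HSPA12A, a distant relative of the HSP70 chaperones, rose from 14.4 and 12.2 to 615.3 on H1L and 1295.2 and 1018.5 on H1R, at least 37.3-fold (limma adjusted p = 2.5e-05). It was the only member of the 29 tested heat shock and chaperone genes that passed. CA3B, a carbonic anhydrase, read 6.7 and 7.2 on WT against 349.5 on H1L and 668.5 and 257.8 on H1R (at least 15.7-fold higher). LGALS1B, a galectin, read 7.9 and 18.4 against 405.9, 777.9 and 488 (at least 21.4-fold higher), but neither of its 2 other tested probe sets was called.

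DCX, doublecortin, which stabilises microtubules in migrating neurons, read 6.7 and 0.7 on WT, 194.7 on H1L, and 499.4 and 426.4 on H1R, at least 13.8-fold higher (limma adjusted p = 9.4e-05). SPO11, the enzyme that opens the DNA breaks of meiotic recombination, read 6.9 and 19 on WT, 548.4 on H1L, and 790 and 377.2 on H1R, at least 21.9-fold higher (limma adjusted p = 7.6e-05). Both are genes of specialised cells, neurons and germ cells, and both lay at or below the background bound on the WT arrays. ANK1, an ankyrin that ties membrane proteins to the spectrin skeleton and is known from red cells, gave close values within each group, with 20.9 and 20.4 on WT and 410, 402.3 and 345.4 on the mutants (at least 15.4-fold higher). Its 5 other tested probe sets were not called. SLC5A9, a sodium-coupled sugar transporter, was at least 8.35-fold higher and CLSTN2, a postsynaptic calsyntenin, at least 8.47-fold.

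SPRY2, a feedback inhibitor of receptor tyrosine kinase signalling, was above background in WT as well, with 46.2 and 46.4, and read 376.3 on H1L and 737 and 562.3 on H1R (log2 fold change 3.38 ± 0.34, limma adjusted p = 0.0004). ABLIM3, an actin-binding LIM protein, was at least 2.59-fold higher, a bound set low by mutant signals of 53 to 78.8. PPP2R2C, a regulatory subunit of protein phosphatase 2A, had a log2 fold change of 3.61 ± 0.40. VLDLR, the receptor through which the chicken oocyte takes up yolk lipoproteins, had 4.62 ± 0.62, with WT signals as far apart as 1 and 37.1 and mutant signals between 259 and 579.5. Among probe sets without a symbol, the rises with the largest separation were from 10.6 and 25 in WT to between 263.6 and 556.4 in the mutants and from 1.7 and 2.2 to between 46.8 and 74.9.

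**Figure D2:**
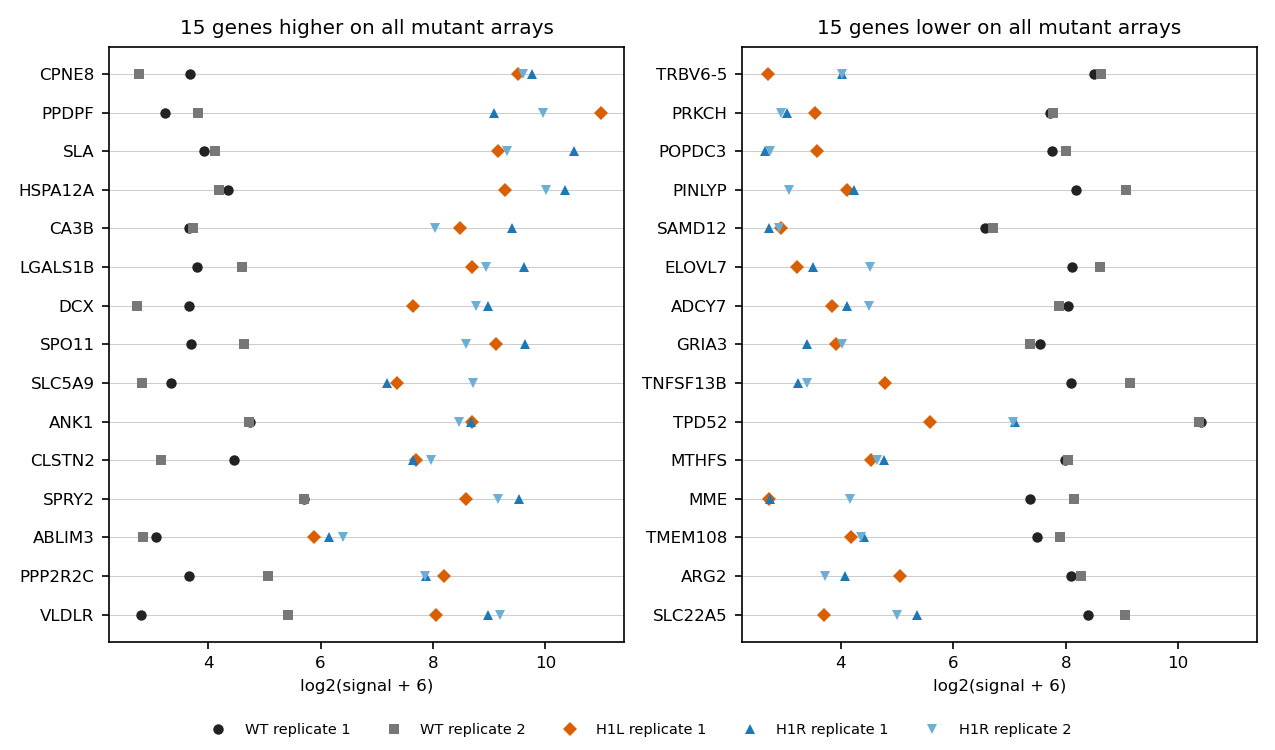
Points give log2(signal + 6) on each of the 5 arrays for the 15 genes with the largest common rises (left) and the 15 with the largest common falls (right), ordered by the smallest of the 6 differences between a mutant and a WT array. The 3 mutant points lie on 1 side of both WT points, as the choice of these genes requires. In some genes, such as TPD52 and SLC22A5, H1L (orange) lies apart from both H1R points (blue).

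TNFSF13B, the cytokine BAFF that keeps B cells alive, read 268.7 and 556.2 on the WT arrays, 21.6 on H1L, and 3.4 and 4.5 on H1R, at least 16.1-fold lower in the mutants (limma adjusted p = 0.0004). All 3 of its probe sets were called. The brightest, at 1014.7 and 1775.5 on WT, stayed above background on H1L at 122.5 and read 20.4 and 16.1 on H1R, so the fall was smaller on H1L in that probe set. MME, the surface peptidase CD10 found on early lymphocytes, read 157.8 and 279.2 on WT against 0.6 on H1L and 0.7 and 12 on H1R, at least 8.73-fold lower (limma adjusted p = 0.00078). TRBV6-5, a variable segment of the T cell receptor beta chain by its symbol, read 355.1 and 388.6 on WT, 0.5 on H1L, and 10.2 and 10.2 on H1R, at least 15.4-fold lower (limma adjusted p = 0.00011). The mutant signals of MME and TRBV6-5 all lay at or below the background bound.

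PRKCH, the eta isoform of protein kinase C, read 205.2 and 212.3 on WT, 5.7 on H1L, and 2.2 and 1.7 on H1R, at least 8.68-fold lower (limma adjusted p = 9.4e-05). ADCY7, an adenylyl cyclase that makes cyclic AMP, read 258.7 and 229 against 8.3, 11.2 and 16.7, at least 10.1-fold lower (limma adjusted p = 0.00013), although its 2 other tested probe sets were not called. POPDC3, a Popeye domain protein of a family that binds cyclic AMP, read 209 and 249.7 against 6, 0.3 and 0.7, at least 9.5-fold lower. The mutant signals of PRKCH, ADCY7 and POPDC3 all lay at or below the background bound, so the size of each fall is known only as a bound. The probe sets without a symbol that fell with the largest separation were at least 20.7-fold and 17.9-fold lower, and their IDs carry the same cluster number as that of the POPDC3 probe set.

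ELOVL7, an elongase of very long chain fatty acids, read 271.9 and 385.5 on WT and 3.3 to 16.8 on the mutants, at least 13.5-fold lower. SLC22A5, the carnitine transporter, read 332.1 and 522.6 on WT, 7 on H1L, and 35 and 25.9 on H1R (log2 fold change -4.04 ± 0.46, limma adjusted p = 0.00099). PINLYP, named for its likeness to inhibitors of phospholipase A2, was at least 16.2-fold lower. MTHFS, an enzyme of folate metabolism, read 247.7 and 258 against 17.3, 21.3 and 19.1 (log2 fold change -3.36 ± 0.29, limma adjusted p = 0.00014). Its signals on H1L and H1R replicate 2 lay below the background bounds of 23 and 33.6, so the size of the fall rests in part on background. ARG2, the mitochondrial arginase, had a log2 fold change of -3.90 ± 0.40, but its 2 other tested probe sets did not show the same direction in all pairs.

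TPD52, a protein of vesicle traffic, read 1353.4 and 1325 on WT, 42.1 on H1L, and 131 and 127.8 on H1R (log2 fold change -3.81 ± 0.43, limma adjusted p = 0.001). It thus stayed above background in all mutants and was lowest on H1L. GRIA3, a subunit of AMPA glutamate receptors, was at least 7.01-fold lower. SAMD12, a protein with a sterile alpha motif domain, was at least 3.9-fold lower, and TMEM108, a membrane protein, at least 8.35-fold. The 30 genes named so far kept their limma calls under each alternative with moderated variances, except SAMD12, which lost it without WT replicate 1 and without WT replicate 2.

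Of the 159 genes with a common change, 96 had another tested probe set. In 86 of these at least 1 other probe set differed in the same direction in all 6 pairs, at any size, and in 41 at least 1 other was called in that direction. Of the 179 other probe sets of these genes, 143 had the gene's direction in all 6 pairs and 52 were called in it. Over all tested probe sets, 13.1% were higher and 11.2% lower in all 6 pairs at any size (24.3% in all), and 0.56% and 0.603% were called higher and lower. Since probe sets of a gene read the same RNA, they are not further replicates.

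Differences within the mutants were examined next, since a common change can still differ in size between the lines. Over the common rises the median difference from the WT mean was 2.28 log2 units on H1L, 2.75 on H1R replicate 1 and 3.0 on H1R replicate 2, and over the common falls it was -2.29, -2.81 and -2.64. H1L had the smallest difference of the 3 mutant arrays in 72 of the 116 rises and 68 of the 131 falls. Over all tested genes the medians against WT of H1L and of H1R replicates 1 and 2 were -0.05, 0.05 and 0.22. The mean that limma tested holds more H1R than H1L arrays, so probe sets with larger differences on H1R could pass more easily. How often H1L had the smallest difference over all tested probe sets was not counted. In the direct test of H1L against H1R, limma called 1 of 23053 probe sets (0.00434%), that of FABP5, and 0 of the 247. At an unadjusted p under 0.05 the counts were 23 of the rises and 24 of the falls, against 5.54% of all tested probe sets. In this direct test limma called 31 probe sets once the day was a block. Among the rises and among the falls, the share at the unadjusted level was larger than over all tested probe sets. The comparison rests on 1 H1L array, and a p that misses the threshold does not show that the lines had equal levels.

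**Figure D3:**
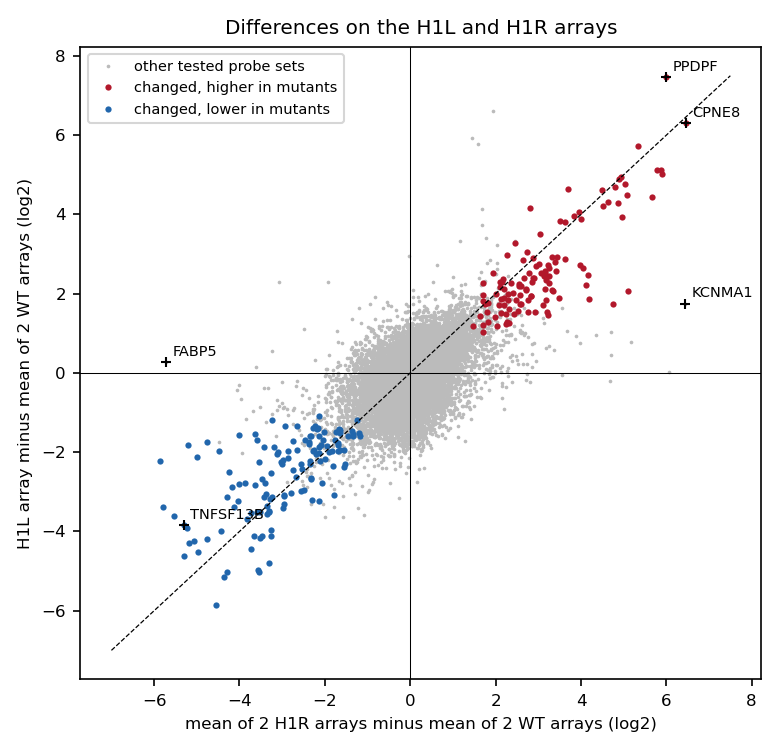
Each point is 1 tested probe set, with the mean difference of the 2 H1R arrays from WT on the x axis and the difference of the H1L array from WT on the y axis, both in log2 units, and the dashed line marks equal differences. The 247 common changes (red and blue) lie in the upper right and lower left quadrants, as their choice requires, and of the genes marked with a cross FABP5 and KCNMA1 were far from 0 on H1R but not common.

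Several common changes had a smaller difference from WT on the H1L array, which has no replicate, than on either H1R array. The direct test of H1L against H1R did not call them. KCNMB1, a regulatory subunit of the BK potassium channel, read 846.6 and 423.4 on WT, 122.6 on H1L, and 3.3 and 5.5 on H1R (log2 fold change -4.66 ± 0.88, limma adjusted p = 0.027). The H1L signal lay between the other groups, and the difference between H1L and H1R did not pass (limma adjusted p = 0.13). LITAF, an endosomal protein induced by lipopolysaccharide, read 2686.8 and 2663.2 on WT, 612.1 on H1L, and 33.1 and 177 on H1R (log2 fold change -4.03 ± 0.81, limma adjusted p = 0.039). MYCN, a transcription factor of the MYC family, read 1 and 1.3 on WT, 17.9 on H1L, below the background bound, and 159.4 and 218.9 on H1R (limma adjusted p = 0.039). No MYCN signal above background was thus shown on H1L, and no fold is given. The other tested MYCN probe set was not higher in all pairs. SLC39A8, a zinc and manganese transporter, read 9.4 and 26.7, then 88 on H1L and 1488.2 and 390.5 on H1R (log2 fold change 4.09 ± 0.84). KCNMB1, LITAF, MYCN and SLC39A8 lost their calls without WT replicate 1, without WT replicate 2, and after quantile or median scaling of the arrays.

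FABP5 and KCNMA1 had large changes on H1R and did not enter the common set, though MYCN, also below the background bound on H1L, did. The H1L signal of FABP5, a fatty acid binding protein, was not below the bound: it read 720.2 and 877.8 on WT and 962.6 on H1L, but 11.3 and 7.4 on H1R. KCNMA1, the pore of the BK channel, read 4.3 and 0.6 on WT, 21.7 on H1L, and 1038.9 and 488.7 on H1R. Its differences exceeded 1 log2 unit in all 6 pairs, but the mean difference did not pass (limma adjusted p = 0.065), and the H1L value lay below the background bound. Of the BK channel, the regulatory subunit KCNMB1 thus had a common fall and the pore KCNMA1 did not pass.

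Members of 29 gene lists were counted with 1 probe set per gene, the brightest. The lists and their members were chosen with earlier results of these data known. The count of calls in a list, set beside that of all genes, is therefore a description and no test of the group. Over all 9962 tested genes limma called 161 by this measure, 77 higher and 84 lower (1.62%), and the median log2 fold change was 0.06. Of 22 tested regulators of B and plasma cells, 0 rose and 2 fell. IRF4, a transcription factor needed for plasma cells, read 2621.1 and 2804.9 on WT, 696.4 on H1L, and 636.8 and 502.7 on H1R (log2 fold change -2.15 ± 0.26, limma adjusted p = 0.0014). ID2, an inhibitor of E proteins, read 366.3 and 323.6, then 146.5 on H1L and 31 and 31.5 on H1R (log2 fold change -2.56 ± 0.53, limma adjusted p = 0.046). ID2 lost its call without WT replicate 1, without WT replicate 2, without H1R replicate 2, after quantile or median scaling, and in further alternatives. The other tested ID2 probe set did not have this direction in all pairs. EBF1, PAX5 and BCL6 were not called, with log2 fold changes of 0.21, 0.25 and 0.38, and the list's median was -0.05.

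Of 27 tested genes of B cell receptor signalling, 1 rose (SLA) and 3 fell (PRKCH, VAV3 and CD79B). VAV3, a guanine nucleotide exchange factor, read 1009.5 and 885.7 on WT, 329 on H1L, and 427.1 and 387.3 on H1R (log2 fold change -1.31 ± 0.28, limma adjusted p = 0.049). CD79B, a signalling chain of the receptor, read 3263.8 and 3744.7, then 2021.7 on H1L and 1216.1 and 1347.6 on H1R, a log2 fold change of -1.23 ± 0.26. Its limma adjusted p was just under the threshold (0.05 when rounded), and its smallest difference, 0.69 log2 units, kept it out of the common changes. VAV3 and CD79B lost their calls in most alternatives, among them the fits without WT replicate 1 and without WT replicate 2. The median of the list was 0.10, near that of all genes.

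The TNF family list, with 19 tested ligands, receptors and associated genes, held 0 rises and 4 falls. Beside TNFSF13B and LITAF these were TNFRSF1B, the second receptor of tumour necrosis factor, and TNFSF10, the death ligand TRAIL. TNFRSF1B read 306.1 and 144.8 on WT, 15.9 on H1L, and 26.5 and 18.1 on H1R (log2 fold change -3.07 ± 0.37, limma adjusted p = 0.0015). TNFSF10 read 639.9 and 551.9, then 138.8 on H1L and 100.7 and 150.8 on H1R (log2 fold change -2.16 ± 0.31, limma adjusted p = 0.0049), and lost its call without WT replicate 1. The median of the list was -0.23. TNFRSF1B was also the only one of 23 tested apoptosis and survival genes that passed.

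Of 18 tested genes of the lymphocyte surface and of homing, 3 rose and 3 fell. CD5, a scavenger receptor family member that restrains antigen receptor signals, rose from 17.7 and 36.1 on WT to 229.7 on H1L and 246 and 208.3 on H1R (log2 fold change 2.89 ± 0.33, limma adjusted p = 0.001). CCR9, a chemokine receptor of gut homing in mammals, was at least 3.87-fold higher, but its other tested probe set was not higher in all pairs. CXCR4, the receptor of CXCL12, read 217.1 and 280.7 against 551.5, 752.4 and 1004.8 (log2 fold change 1.57 ± 0.32, limma adjusted p = 0.043), with 0.96 log2 units in its closest pair. The falls were those of MME, CD200, an inhibitory surface ligand that was at least 6.81-fold lower, and CD44, the hyaluronan receptor (log2 fold change -1.73 ± 0.33, limma adjusted p = 0.031). CCR9, CXCR4 and CD44 lost their calls without WT replicate 1 and without WT replicate 2, and CD200 without the former. CCR9, CXCR4 and CD44 also lost theirs without H1R replicate 2, and CD44 without H1L. The median of the list was -0.34, but by array it was 0.02 on H1L and -0.41 and -0.51 on H1R, so H1L did not share it.

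Of 33 tested genes of DNA end joining and recombination, 1 rose, SPO11, and 1 fell, LIG4. LIG4, the ligase that seals breaks in nonhomologous end joining, read 370.5 and 319.6 on WT, 61.8 on H1L, and 115.5 and 112.2 on H1R (log2 fold change -1.82 ± 0.34, limma adjusted p = 0.027). XRCC4, the partner of LIG4, had a log2 fold change of 0.61 ± 0.32 and was not called (limma adjusted p = 0.62). The median of the list was 0.08, close to that of all genes, and LIG4 lost its call without WT replicate 1 and without WT replicate 2. LIG4 also lost it without H1L, without H1R replicate 2, and in further alternatives.

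Lipid handling, with 26 tested genes, held 1 rise, that of VLDLR, and 3 falls, those of ELOVL7, SLC22A5 and NAAA. NAAA, a lysosomal amidase that breaks down fatty acid ethanolamides, read 582.9 and 316.8 on WT, 19.3 on H1L, and 32.2 and 48.1 on H1R (log2 fold change -3.54 ± 0.39, limma adjusted p = 0.00082). Its other tested probe set did not have this direction in all pairs. Of 19 tested genes of cholesterol synthesis limma called 0, with 1 at an unadjusted p under 0.05, and their median was -0.31. By array this median was -0.51 on H1L and -0.06 and -0.32 on H1R. Among 24 tested ion channel genes 0 rose and 2 fell, KCNMB1 and KCNT2, a sodium-activated potassium channel (log2 fold change -2.18 ± 0.32, limma adjusted p = 0.0065), which lost its call without WT replicate 1. Metal and solute carriers, 21 tested, had 1 rise (SLC39A8) and 1 fall (SLC22A5), and TPD52 was the only one of the 3 members of its family to pass.

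Among 21 tested genes of the neuronal list DCX and ANK2 rose and 0 fell, with a median of 0.11. The list does not hold GRIA3, the glutamate receptor subunit given above, which fell (log2 fold change -3.67 ± 0.35). The 0 falls therefore apply to the listed genes and not to neuronal genes at large. ANK2, an ankyrin of neurons and heart muscle, read 27.8 and 58.5 on WT, 307.4 on H1L, and 275.9 and 501 on H1R (log2 fold change 2.93 ± 0.38, limma adjusted p = 0.0025). MMP9, a gelatinase, was the only one of 9 tested metalloproteinases and inhibitors to pass, with 24.1 and 61.2 on WT, 793.3 on H1L, and 246.2 and 389.1 on H1R (log2 fold change 3.26 ± 0.48, limma adjusted p = 0.0065). MMP9 lost its call without WT replicate 1. SPRY2 was the only one of 13 genes of receptor tyrosine kinase feedback and MYCN the only one of 40 cell cycle genes.

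In the lists that bear on chromatin itself, limma called 0 of 51 tested chromatin regulators, with 3 at an unadjusted p under 0.05, and 0 of 6 core and variant histones, with 0 at that level. Their medians were 0.02 and 0.04. Lists of glycolysis (19 tested), oxidative phosphorylation (34), cytosolic ribosomal proteins (54), antigen presentation (11) and the interferon and NF-kB pathways (24) also held 0 members called by limma, with medians between -0.05 and 0.15. At an unadjusted p under 0.05 they held 3, 0, 0, 2 and 2 members, where all tested genes gave 11.3%. Over all tested genes limma called 1.62%, so a count of 0 does not set any 1 list of this size apart. With 5 arrays limma thus detected no difference between mutants and WT in a member of these lists, which does not show that they were unchanged. Without a test, 1 glycolysis gene was lower by at least 1 log2 unit in all 6 pairs. In the interferon and NF-kB list 1 gene was higher by that measure, TNFAIP3, with 8.7 and 8.6 on WT and 34.6 to 39.5 on the mutants (limma adjusted p = 0.096).

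Markers of other cell types were measured alongside these groups. The summed signal of the T cell markers was 2553.4 and 4332.3 on the WT arrays and 2029.3, 1338.3 and 803.3 on the mutants, mostly from CD3D, and limma called 0 of 4 tested members, with 3 at an unadjusted p under 0.05 (CD3D log2 fold change -1.39 ± 0.37, limma adjusted p = 0.13). The summed fibroblast markers were 1438.8 and 1910.5 on WT and 889.8, 300.1 and 538.1 on the mutants, mostly from VIM, a filament protein also made by lymphocytes, which read 1276.9 and 1739 on WT, 657.9 on H1L, and 74.5 and 128.5 on H1R (limma adjusted p = 0.066). COL1A2, a collagen chain of the same list, rose from 6 and 26.5 to between 98.3 and 285.1 (log2 fold change 2.91 ± 0.51, limma adjusted p = 0.018). COL1A2 was not called without WT replicate 1, without H1L, without H1R replicate 2, with equal weight per deletion, and in further alternatives. Of its 4 other tested probe sets, 2 had this direction in all pairs and 1 was called. COL1A1, another collagen chain of the list, went the other way, from 36.6 and 41.3 to between 16.5 and 20.5 (log2 fold change -0.84 ± 0.36), and was not called. COL3A1 (0.17 ± 0.34) and FN1 (-0.17 ± 0.33) were not called either. LUM, DCN and PDGFRA were above the background bound on no array. Myeloid markers summed to 1154.4 and 1474.7 on WT and 1447.6 to 1833.9 on the mutants, mostly from SPI1. SPI1, also on the list of B and plasma cell regulators, read 1030.2 and 1367.2 on WT and 1361.8 to 1724.2 on the mutants. It was not called (log2 fold change 0.34 ± 0.25). Erythroid markers summed to 37.7 and 57.6 against 43.4 to 75.2. The part of these shifts in the falls of lymphocyte genes was not tested.

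Paralogs of genes with a common change were compared, in families chosen after the values were seen. Both doublecortin genes that could be tested rose, DCX as given above and DCLK1, a kinase with doublecortin domains, which read 30.1 and 26.2 on WT, 197.6 on H1L, and 229.1 and 385.7 on H1R (log2 fold change 2.96 ± 0.34, limma adjusted p = 0.0012). The same held for the ankyrins ANK1 and ANK2 and for the actin-binding LIM proteins ABLIM1 (at least 8.06-fold higher) and ABLIM3. Of the 3 tested nuclear factor I genes, transcription factors of development, NFIB (at least 1.87-fold higher) and NFIX (32.8 and 22.9 on WT against 372.2, 128.4 and 553.5) rose, and NFIC was not called (log2 fold change 0.71 ± 0.42). The common rise was carried by 2 of 4 tested probe sets for DCX, 2 of 3 for DCLK1, 1 of 6 for ANK1, 3 of 9 for ANK2, 1 of 4 for ABLIM1 and for ABLIM3, and 1 of 2 for NFIB.

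In other families members differed in direction or only some passed. Of the calsyntenins, CLSTN2 rose, CLSTN1 fell (log2 fold change -1.73 ± 0.31, limma adjusted p = 0.021) and CLSTN3 was not called (-0.06 ± 0.45). Of 8 tested protein kinase C genes, PRKCH and PRKCD fell. PRKCD read 606.2 and 786.1 on WT, 147.2 on H1L, and 101.6 and 65.8 on H1R (log2 fold change -2.72 ± 0.36, limma adjusted p = 0.003), and PRKCB, the isoform with a central role in B cells, was not called (-0.32 ± 0.32). On the side of cyclic AMP, ADCY7 was the only one of 5 tested adenylyl cyclases to change, and PDE4D, a phosphodiesterase that breaks cyclic AMP down, rose in 3 of its 4 probe sets while PDE4B and PDE4C were not called. Of 4 tested copines CPNE8 alone was called.

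The common changes were next placed on the chromosomes of the RefSeq annotation (GRCg7b), by gene order and without coordinates. For chromosomes with at least 50 tested probe sets, the median difference of all probe sets from WT was taken relative to the median of the whole array. It was above 0 in all 6 pairs for chromosome 9 (0.31, pairs from 0.26 to 0.39), chromosome 11 (0.37, from 0.28 to 0.45) and chromosome 20 (0.21, from 0.01 to 0.58). It was below 0 in all 6 pairs for chromosome 10 (-0.27, from -0.42 to -0.12) and chromosome 21 (-0.41, from -0.56 to -0.27). Of the probe sets of chromosomes 9 and 11, 75.3% and 74.4% lay above the overall median, and of those of chromosomes 10 and 21, 23% and 18.2%. All 6 pairs were also below 0 for chromosome 13 (-0.05, from -0.13 to -0.01) and chromosome 26 (-0.03, from -0.08 to -0.01), with medians close to 0. These shifts are small beside the common changes, the largest corresponding to a ratio of 1.33.

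The WT arrays themselves differed in some of these chromosomes. The median of WT replicate 2 minus WT replicate 1 was -0.32 on chromosome 10, -0.24 on chromosome 21 and -0.25 on chromosome 20, against 0.09 and 0.08 on chromosomes 9 and 11. Chromosomes 3 and 25 were each at 0.35 on H1L, against 0.04 and 0.02 on H1R for chromosome 3 and -0.21 and -0.01 for chromosome 25, where WT replicate 2 also lay 0.24 above replicate 1. Chromosome 12 differed between the H1R arrays (-0.21 and 0.17). The medians of chromosomes 9, 10, 11, 20 and 21 kept their direction after quantile normalization and when the common changes were left out. DNA copy number was not measured, so its part in these shifts was not tested. Chromosome 20 held 7 common rises and 1 common fall among 394 tested probe sets, chromosome 9 had 4 and 5 among 543, chromosome 11 had 2 and 1 among 469, chromosome 10 had 1 and 7 among 522 and chromosome 21 had 0 and 4 among 296. Over all tested probe sets the shares were 0.503% and 0.568%. Chromosomes with medians near 0 also had uneven counts, with 8 and 0 among 575 on chromosome 6 (median -0.01) and 0 and 8 among 565 on chromosome 14 (-0.03). Whether the common changes follow the chromosome medians was not tested.

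**Figure D4:**
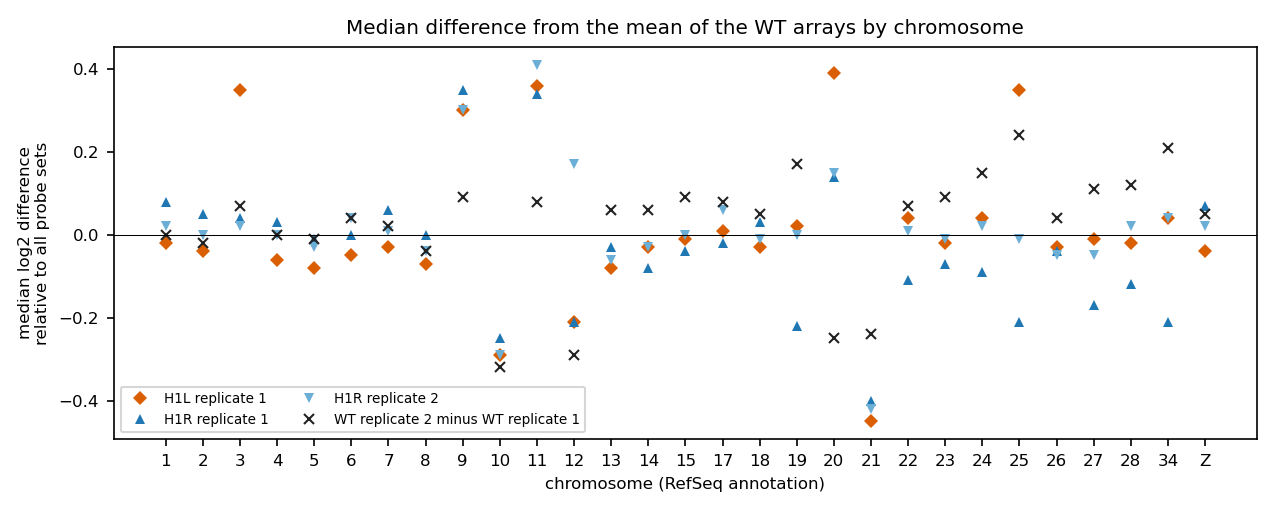
For each chromosome with at least 50 tested probe sets, points give the median log2 difference of each mutant array from the mean of the WT arrays, relative to the median of all probe sets, and crosses the same median for WT replicate 2 minus WT replicate 1. The 3 mutants lie together above 0 on chromosomes 9 and 11 and below 0 on chromosomes 10 and 21, and H1L alone of the mutants is high on chromosomes 3 and 25.

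Some genes with a common change lay next to each other. Of the 159 genes 158 could be placed in the order of 17901 protein-coding genes, and within 5 genes to either side they had 959 tested neighbours. Of these neighbours 32 (3.34%) had a common change in the same direction and 6 (0.626%) in the opposite direction, where 0.753% of tested genes had a common rise and 0.855% a common fall. The share was 4.42% within 2 genes and 2.24% within 10. Each pair of neighbours is counted from both sides, and the window was chosen after the data were seen, so these shares are given as a description. The neighbours changed in the same direction within 5 genes all lay in 7 runs. The run of 5 genes on chromosome 14 gave more of them than any other run, so the share rests largely on few places.

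The longest run was on chromosome 14, where VWA3A, SDR42E2, CDR2, LOC416622 and METTL9 all fell. CDR2, the antigen of paraneoplastic cerebellar degeneration, read 791 and 823.6 on WT, 126.8 on H1L, and 112.5 and 128.8 on H1R (log2 fold change -2.66 ± 0.29, limma adjusted p = 0.00069). LOC416622 had -2.30 ± 0.33, VWA3A was at least 2.79-fold lower, SDR42E2, by its symbol a short-chain dehydrogenase, had -1.75 ± 0.37, and METTL9, a histidine methyltransferase, -1.42 ± 0.29. POLR3E, a subunit of RNA polymerase III that lies inside the run, was not called, with 793.3 and 853.7 on WT and 548 to 747.7 on the mutants (log2 fold change -0.30 ± 0.27). The genes just outside it that could be tested, C16orf52 (0.01 ± 0.30) and OTOA (0.54 ± 0.46), were not called either.

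On chromosome 20 the neighbours RBM38, SPO11 and BMP7 rose. RBM38, an RNA-binding protein induced by p53, read 10.2 and 37 on WT, 164 on H1L, and 155.1 and 248.5 on H1R (log2 fold change 2.86 ± 0.42, limma adjusted p = 0.0057). BMP7, a bone morphogenetic protein, read 84.8 and 52.2, then 412.3 on H1L and 215.9 and 344.7 on H1R (log2 fold change 2.13 ± 0.36, limma adjusted p = 0.014). RAE1, an mRNA export factor between RBM38 and SPO11, read 848.4 and 717.1 on WT and 1084.8 to 1724.5 on the mutants, higher in all 6 pairs but not called (log2 fold change 0.91 ± 0.28, limma adjusted p = 0.22). The median of this chromosome was itself 0.21 above that of all probe sets.

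The other 5 runs were of 2 genes each. TNFSF13B and LIG4 lay on either side of ABHD13 on chromosome 1, and both fell while ABHD13 was not called (log2 fold change -0.49 ± 0.30). On chromosome 2 COL1A2 and CASD1 rose (CASD1 1.55 ± 0.31, limma adjusted p = 0.04), and SGCE next to them, a sarcoglycan, had 1.09 ± 0.30 without passing (limma adjusted p = 0.14). Elsewhere on the same chromosome THSD7A (510.4 and 430.7 on WT, 129.3 on H1L, 8.9 and 5 on H1R) and SCIN, an actin-severing protein that was at least 4.49-fold lower, fell on either side of TMEM106B, which was not called (-0.07 ± 0.26). DOCK4 and LRRN3 (at least 5.89-fold higher) rose on chromosome 1 around IMMP2L (0.57 ± 0.31, not called). DOCK4 read 5.6 and 1.7 on WT, 21.6 on H1L, and 84.9 and 76.4 on H1R. Its H1L signal lay below the background bound of 23, so no fold is given. ATL1 (-2.21 ± 0.44) and PYGL, the liver glycogen phosphorylase (-1.93 ± 0.38), fell on chromosome 5. The 7 runs together held 18 of the 158 genes.

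**Figure D5:**
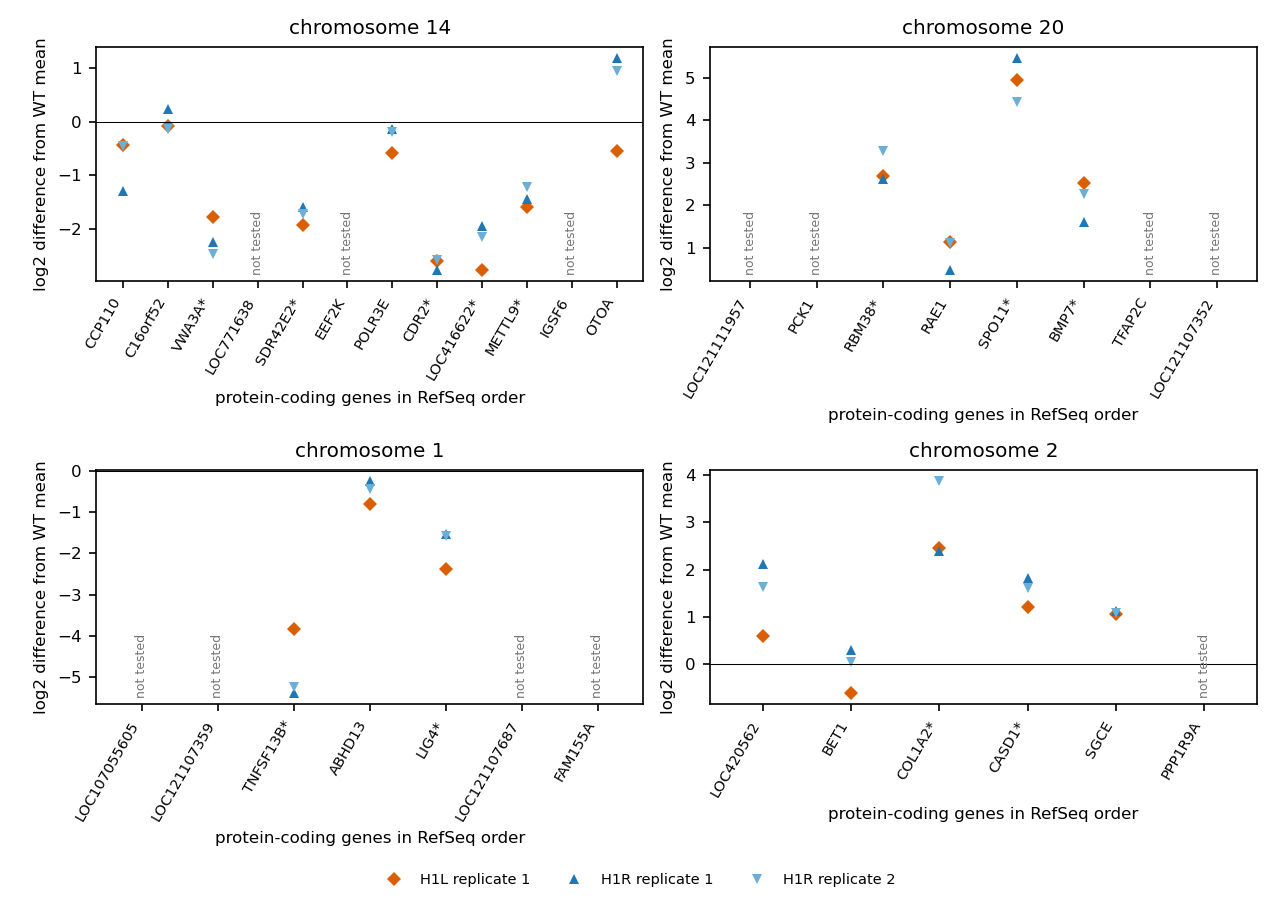
Points give the log2 difference of each mutant array from the mean of the WT arrays for protein-coding genes in their order along 4 stretches of chromosomes 14, 20, 1 and 2, with an asterisk on genes that had a common change and a mark on genes that were not tested. POLR3E on chromosome 14 (-0.58 to -0.14) and ABHD13 on chromosome 1 (-0.8 to -0.24) lie below 0 between genes that fell further. RAE1 on chromosome 20 lies at 0.47 to 1.14 between genes that rose.

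All of these comparisons set 3 mutant arrays against the same 2 WT arrays. A feature of the WT culture that both mutant lines lack and an effect that the deletions share cannot be told apart in this design, and neither can an effect of a deletion and any other difference between the lines.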

How the data were processed

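The 5 Affymetrix arrays (WT 2, H1L 1, H1R 2) were grouped by the sample titles. The deposited values are linear probe set signal intensity from GCOS, per the submitters' processing notes, and were used as the authors scaled them; version, scaling target and detection calls are not given in the sources used here. After 96 control probe sets were left out, 38439 remained: 27168 with 1 gene symbol, 177 with several, 11094 with none, and 26853 matched to RefSeq genes (GRCg7b).

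Values were tested as log2(signal + 6), the 25th percentile as pseudocount, which understates folds of dim probe sets, in 23053 probe sets with a mean signal above 13.4 (40th percentile). limma 3.58.1 (R 4.3.3; eBayes with a trend, 3 residual and 8.39 prior degrees of freedom, two-sided, Benjamini-Hochberg, threshold 0.05) compared mutant with WT, and a fit with 3 groups H1L with H1R. Errors after ± are standard errors over 5 arrays, whose number limits the precision. If a whole group read at or below the background bound, its mean was taken over the higher of bound and signal per array and the fold is given as "at least". No fold is given for MYCN and DOCK4, whose H1L signals in the brighter group also lay below the bound. Where only some arrays of a group read at or below the bound, the log2 fold change rests in part on background signals. Examples are MTHFS, ARG2, SLC22A5, TNFRSF1B, KCNMB1, PPP2R2C and VLDLR. The script was tested on simulated data.

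Date codes in the descriptions put replicate 1 of WT and H1R on a first day and the other 3 arrays on a second. Same-day WT and H1R deviations correlated at 0.192 (0.188 after quantile normalization), and the day was a block in an alternative fit. Other alternatives varied scaling, pseudocount, filter, weighting, moderation and the arrays used.

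Named genes were the 15 rises and 15 falls, with a symbol not starting with LOC, of largest separation among common changes, with called list members, linker histones and 2 probe sets without a symbol each way. Families, runs, FABP5, KCNMA1 and the genes under other observations were chosen after their values were seen. The members and lists were chosen with earlier results of these data known.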

Additional observations from a re-analysis of the deposited data

Results flagged for a closer look

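FABP5, a fatty acid binding protein, was the 1 probe set of 23053 that differed between the mutant lines in a direct limma test. It read 962.6 on the H1L array and 11.3 and 7.4 on the H1R arrays, at least 39.1-fold higher on H1L (limma adjusted p = 0.0075). Both H1R signals lay below the background bound, so the fitted difference of H1L minus H1R, 5.99 on the log2(signal + 6) scale, is no measure of size. It is given here because its difference from WT went with 1 deletion label and not with the other, and the test has 1 array in the H1L arm, which is assumed to vary like the others.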

How the results depend on the processing

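Against 268 called probe sets and 247 common changes, limma gave 94 of either without a filter on dim probe sets, where 38439 were tested, and 161 of either without a variance trend. An ordinary linear model without moderation called 0 of either, with 1754 at an unadjusted p under 0.05. With the replicate block (day) it was 689 called and 323 common. Leaving out 1 array at a time gave 94 to 404 called and 94 to 349 common. Separation in all pairs held for 385 probe sets, 5596 at any size, 107 at 2 log2 units and 542 to 1127 with 1 array left out, where fewer pairs were asked for. H1L against H1R gave 1 call, 31 with the replicate block and 2 after quantile normalization. Beyond the unmoderated fit, 29 of the 30 largest changes kept their calls without WT replicate 1 or 2 and all 30 in each other setting. Of 855 comparisons of 57 single results with an alternative, 154 lost the call and 0 changed direction, which the choice of these results largely fixes. The median of chromosomes 9, 10, 11 and 21 was 0.37, -0.32, 0.45 and -0.46 over the brighter probe sets, an alternative chosen after seeing the data. The fit without a filter tested more probe sets and the fits without an array used fewer arrays, but the causes of these shifts in counts were not tested. Dim signals limit the sizes: 65 of 116 rises and 50 of 131 falls had 1 group at or below the background bound, which gives a bound and no size.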

Other observations

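Further genes with a common change are given here, picked after their values were seen, so that they stand for no group. BGN, the proteoglycan biglycan, was at least 4.03-fold higher in the mutants, with 6.2 and 1.6 on WT, 39.1 on H1L, and 155.1 and 168.5 on H1R (limma adjusted p = 0.0085). APP, the amyloid precursor protein, rose from 19.3 and 25.2 to 113.6, 255.7 and 295 (log2 fold change 2.91 ± 0.40, limma adjusted p = 0.0039), and PMP22, a peripheral myelin protein, was at least 4.12-fold higher. LAMA5, a laminin chain, went the other way and was at least 7-fold lower, as were SNX7, a sorting nexin (at least 6.85-fold), and NPTN, an adhesion molecule (log2 fold change -3.25 ± 0.52). In BGN and APP the H1L signal was below both H1R signals.

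IL16, a precursor of a chemoattractant of CD4 cells, read 1692.2 and 1118.4 on WT, 141.7 on H1L, and 132 and 46.3 on H1R (log2 fold change -3.76 ± 0.44, limma adjusted p = 0.0012). RGCC, a cell cycle regulator that responds to complement, read 1089.3 and 1284.1 against 179.1, 56.6 and 178.4 (log2 fold change -3.21 ± 0.45, limma adjusted p = 0.0042). FOXP1, a transcription factor needed for early B cells in mice, read 367.5 and 278.3 against 58.5, 70.1 and 108.1 (log2 fold change -1.98 ± 0.34, limma adjusted p = 0.015). EAF2, an elongation factor partner, read 1518.5 and 1645.5 against 747.8, 446.8 and 285 (log2 fold change -1.78 ± 0.37, limma adjusted p = 0.043).

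Of the 159 genes with a common change, FAM65A was the 1 with another probe set called in the opposite direction. The FAM65A probe set with the common rise read 46.8 and 62.7 on WT and 140.9, 250.6 and 171.1 on the mutants (log2 fold change 1.64 ± 0.33, limma adjusted p = 0.041). Another FAM65A probe set read 145.6 and 360.4 on WT and 75.3, 43.9 and 44.5 on the mutants (log2 fold change -2.0 ± 0.41, limma adjusted p = 0.04). Which transcripts these probe sets read was not examined, since no probe or genome sequence was used here.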
